A study of Mus musculus with 2 samples.

Results

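The genes described here are 46 regulators and effectors of the cell cycle, out of 55536 genes in the deposited gene tables, measured in the juvenile mouse heart. They were taken from a list of gene symbols, and all 46 were found. By role they fell into 19 genes of mitosis and cytokinesis, 9 genes of S phase (DNA replication and nucleotide synthesis), 8 G1 cyclins and cyclin-dependent kinases, 5 pocket proteins and E2F factors, and 5 further genes made up of 4 kinase inhibitors and Meis1. The first 28 genes act in S phase and mitosis, and the other 18 are set beside them as G1 regulators and inhibitors. Hearts of female B6CASTF1/J mice aged 25 days gave 2 total RNA libraries, each from 300 ng of RNA, depleted of ribosomal RNA and spiked with ERCC control transcripts. B6CASTF1/J is a first-generation hybrid of a laboratory strain and a wild-derived strain. Both libraries form a single group with no treatment and no other age, so no condition was compared. The labels give the samples separate animal numbers under a shared donor label; they are called replicates 1 and 2, and their spread is that between these 2 samples.

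The cell cycle runs from G1, in which D-type cyclins with Cdk4 and Cdk6 and then E-type cyclins with Cdk2 phosphorylate the pocket proteins, through DNA replication in S phase to mitosis, driven by A- and B-type cyclins with Cdk1. Pocket proteins bound to E2F factors hold S phase genes silent in resting cells, and the DREAM complex represses mitotic genes through promoter elements called CHR (cell cycle genes homology region). CIP/KIP and INK4 inhibitors bind cyclin-dependent kinases. In the mouse heart most cardiomyocytes stop dividing in the first weeks after birth, while endothelial cells, fibroblasts and macrophages keep a capacity to divide. A bulk library measures all of these together: fewer cycling cells and less RNA per cycling cell cannot be told apart.

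The promoters of the members differ in these elements, and 6 of them are shown as examples: 4 mitotic genes, 1 replication gene and 1 G1 cyclin. All 4 mitotic windows shown hold CHR letters within 50 bases of the start, which those of Birc5, Ccnb1, Cenpe and Mki67 do not. Each window runs from 250 bases before the annotated start to 50 bases after it, is taken from RefSeq on GRCm38.p6, and reads 5′ to 3′ along the strand of the gene. Capitals mark matches to the CHR letters (TTTGAA or TTCGAA) and to the E2F letters (TTTGGCGC, TTTCCCGC, TTTCGCGC or TTTGCCGC), on either strand; CCAAT boxes are left in lower case. The windows are Top2a at chr11:99024140-99024439 (minus strand), Cdk1 at chr10:69352863-69353162 (minus strand), Kif11 at chr19:37376132-37376431 (plus strand), Racgap1 at chr15:99651607-99651906 (minus strand), Mcm6 at chr1:128359656-128359955 (minus strand) and Ccnd3 at chr17:47593217-47593516 (plus strand).
Top2a: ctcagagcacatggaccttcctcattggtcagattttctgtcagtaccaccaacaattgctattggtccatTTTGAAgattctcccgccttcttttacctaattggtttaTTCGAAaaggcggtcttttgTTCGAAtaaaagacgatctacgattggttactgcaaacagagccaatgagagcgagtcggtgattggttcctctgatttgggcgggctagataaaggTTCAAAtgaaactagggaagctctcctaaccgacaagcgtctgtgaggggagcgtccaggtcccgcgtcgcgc
Cdk1: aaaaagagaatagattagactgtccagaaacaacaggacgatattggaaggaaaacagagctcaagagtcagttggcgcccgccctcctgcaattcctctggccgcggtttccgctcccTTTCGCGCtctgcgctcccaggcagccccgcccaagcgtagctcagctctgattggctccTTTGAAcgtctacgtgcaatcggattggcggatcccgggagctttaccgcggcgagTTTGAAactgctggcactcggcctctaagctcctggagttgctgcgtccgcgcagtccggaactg
Kif11: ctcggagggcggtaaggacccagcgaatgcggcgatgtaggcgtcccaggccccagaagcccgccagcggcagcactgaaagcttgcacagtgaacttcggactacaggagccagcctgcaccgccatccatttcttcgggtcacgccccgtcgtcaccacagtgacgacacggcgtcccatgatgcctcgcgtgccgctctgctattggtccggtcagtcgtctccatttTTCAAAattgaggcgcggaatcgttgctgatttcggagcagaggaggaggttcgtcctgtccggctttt
Racgap1: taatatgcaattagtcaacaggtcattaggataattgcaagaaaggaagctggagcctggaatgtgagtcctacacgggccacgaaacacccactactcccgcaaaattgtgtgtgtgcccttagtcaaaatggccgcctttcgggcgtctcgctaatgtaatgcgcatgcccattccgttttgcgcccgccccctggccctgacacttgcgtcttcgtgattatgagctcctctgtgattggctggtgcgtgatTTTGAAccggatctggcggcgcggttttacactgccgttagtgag
Mcm6: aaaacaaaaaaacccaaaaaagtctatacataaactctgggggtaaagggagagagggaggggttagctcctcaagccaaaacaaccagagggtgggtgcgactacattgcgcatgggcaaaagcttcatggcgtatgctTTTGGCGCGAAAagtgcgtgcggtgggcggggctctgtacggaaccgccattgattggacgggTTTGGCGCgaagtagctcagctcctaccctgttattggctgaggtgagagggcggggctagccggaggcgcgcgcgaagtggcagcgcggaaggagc
Ccnd3: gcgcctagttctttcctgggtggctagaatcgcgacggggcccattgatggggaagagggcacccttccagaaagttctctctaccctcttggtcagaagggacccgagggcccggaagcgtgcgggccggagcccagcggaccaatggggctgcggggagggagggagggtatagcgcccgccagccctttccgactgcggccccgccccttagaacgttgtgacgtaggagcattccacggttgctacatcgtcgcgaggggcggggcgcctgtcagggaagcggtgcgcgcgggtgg

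A window was held for 38 of the 46 members, the one nearest to the start of the member's highest transcript, and in 32 of them that start lay within 100 bases. The members without one were Aurkb, Ccna2, Ccnd1, Ccnd2, Ccne2, E2f4, Kif20a and Rb1. CHR letters occurred in 13 of 16 windows of mitotic genes (81.2%) and in 2 of 9 of S phase genes (22.2%). They occurred in 0 of 5 windows of G1 cyclins and kinases, 0 of 5 of inhibitors and Meis1, and 1 of 3 of pocket proteins and E2F factors, against 17.2% of 16522 protein-coding genes with 1 window each and 19.2% of all 32851 windows. The mitotic genes without a match were Birc5, Ccnb1 and Cenpe. Within 50 bases of the start, a distance chosen after the positions were seen, 12 of the 16 mitotic windows (75.0%) held a CHR match, against 0 windows of the other members and 4.13% of protein-coding genes.

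Counted from the start as position 0, the CHR letters nearest to it began at -23 in Top2a, -15 in Cdk1, -19 in Kif11 and 5 in Racgap1. E2F letters occurred in 4 of 9 windows of S phase genes (44.4%), those of Mcm3, Mcm5, Mcm6 and Mcm7, and in 1 of 16 windows of mitotic genes (6.25%), that of Cdk1 at -131. They also occurred in 1 of 5 windows of G1 cyclins and kinases, that of Cdk2. Of pocket proteins and E2F factors 1 of 3 windows held them, that of Rbl1, and of inhibitors and Meis1 0 of 5. The shares were 2.93% of protein-coding genes and 2.26% of all windows. CCAAT boxes (CCAAT, either strand) stood in 14 of 16 mitotic windows (87.5%) and 8 of 9 S phase windows (88.9%), against 2 of 5 windows of G1 cyclins and kinases, 4 of 5 of inhibitors and Meis1, 0 of 3 of pocket proteins and E2F factors, 38.8% of protein-coding genes and 37.4% of all windows. A CHR match and a CCAAT box stood together in 12 mitotic windows, and matches of different motifs overlapped in 1 of the 38. A match is a description of letters, and binding was not measured.

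**Figure D1:**
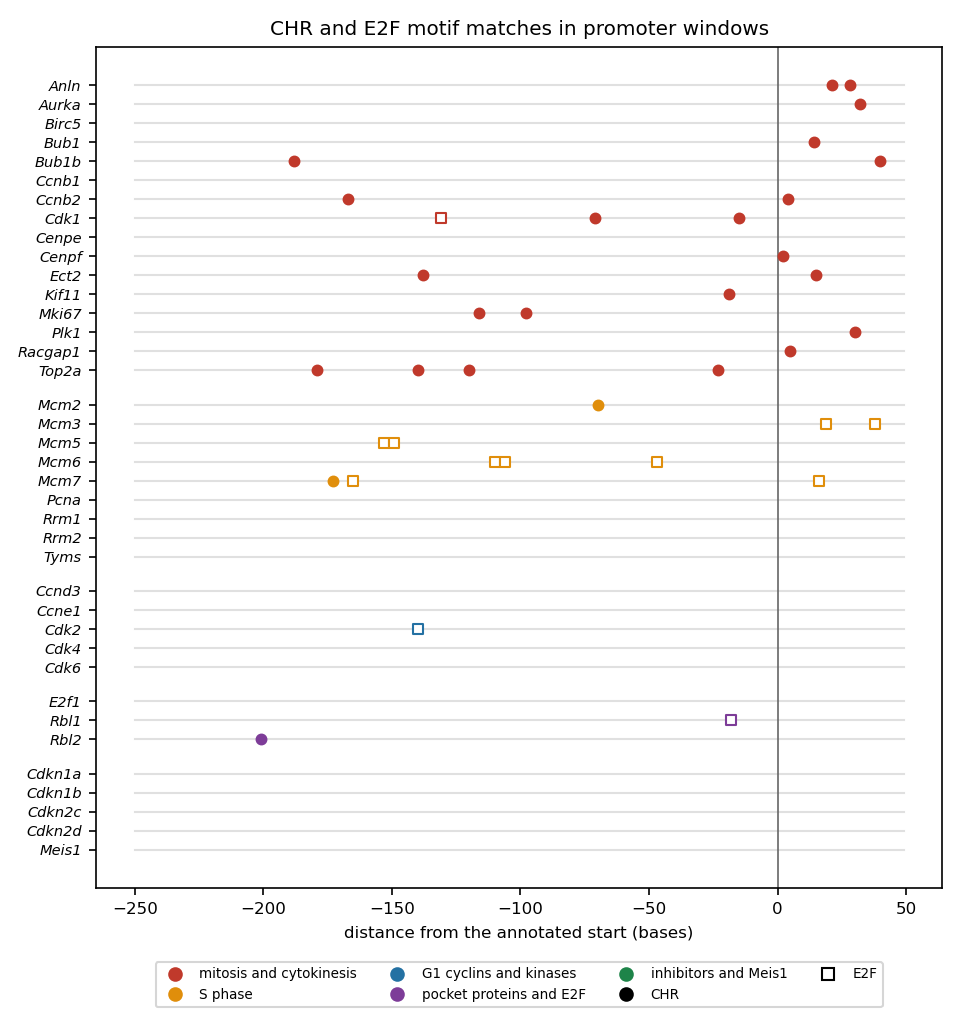
Positions of CHR (filled circles) and E2F (open squares) letters in the promoter windows of 38 members, in bases from the annotated start (vertical line), coloured by role. CHR matches fill the mitotic block, where 13 of 16 windows hold a match. E2F matches stand in 4 of 9 windows of the S phase block, all MCM genes, and in those of Cdk1, Cdk2 and Rbl1.

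Reads assigned to genes came to 42966739 in replicate 1 and 42720824 in replicate 2, so the libraries were nearly equal in depth. Levels are given in TPM, transcript abundance per length scaled to a fixed total in each library, from the alignment-based gene tables. Counts are the expected counts of the same tables, that is, reads assigned to a gene. A gene is called detected at 1 TPM or more in both libraries. Cardiomyocyte markers (Myh6, Tnnt2 and 8 others) were all detected and summed to 39881 TPM in replicate 1 and 41374 TPM in replicate 2. Liver markers were higher in replicate 2 in 10 of 10 tested genes and summed to 23.7 TPM in replicate 1 and 53.7 TPM in replicate 2; Alb, the plasma protein albumin, had 2 and 907 counts.

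Of the 18 G1 regulators and inhibitors among the members, 15 reached 1 TPM in both hearts. The median protein-coding gene had 1.18 TPM in replicate 1 and 1.06 TPM in replicate 2. By median rank, G1 cyclins and kinases stood above 75.8% of protein-coding genes in replicate 1 and 74.1% in replicate 2. Mitotic members stood above 44.7% and 41.5%. The median of the 19 mitotic members lay more than an order of magnitude below that of the G1 cyclins and kinases. Genes of mitosis outside the members went both ways. A list of 34 further mitotic genes had medians of 0.425 TPM in replicate 1 and 0.22 TPM in replicate 2. The anaphase-promoting complex had 13.4 and 13.9 TPM. Of the 46 members 25 were detected, against 49.9% of 22028 protein-coding genes, so the list as a whole was close to that share and its role groups were far apart. The detected members were 1 of 19 mitotic genes, 9 of 9 S phase genes, 7 of 8 G1 cyclins and kinases, 3 of 5 pocket proteins and E2F factors, and 5 of 5 inhibitors with Meis1. The median mitotic gene had 0.52 TPM in replicate 1 and 0.27 TPM in replicate 2 (0.395 ± 0.177, SD, n = 2). The median G1 cyclin or kinase had 10.9 TPM in replicate 1 and 8.56 TPM in replicate 2 (9.75 ± 1.69). Within a library the G1 median was thus 21 times the mitotic median in replicate 1 and 31.7 times in replicate 2. With the deposited posterior mean TPM the multiples were 14.2 and 15.8.

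S phase genes lay between these levels. Their median was 2.34 TPM in replicate 1 and 1.93 TPM in replicate 2 (2.14 ± 0.290), which was 4.50 and 7.15 times the mitotic median of the same library, and 3.56 and 4.57 times with posterior mean TPM. Pocket proteins and E2F factors had medians of 7.20 and 5.69 TPM (6.45 ± 1.07), and inhibitors with Meis1 10.2 and 6.89 TPM (8.54 ± 2.33). For comparison, 28 mitotic and S phase genes together had a median of 0.905 TPM in replicate 1 and 0.43 TPM in replicate 2, and the 18 G1 regulators and inhibitors 7.41 TPM in replicate 1 and 6.8 TPM in replicate 2. The highest mitotic median in either library was thus below the lowest median of any other role group in either library. These medians have no test, since the roles were not replicated conditions.

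**Figure D2:**
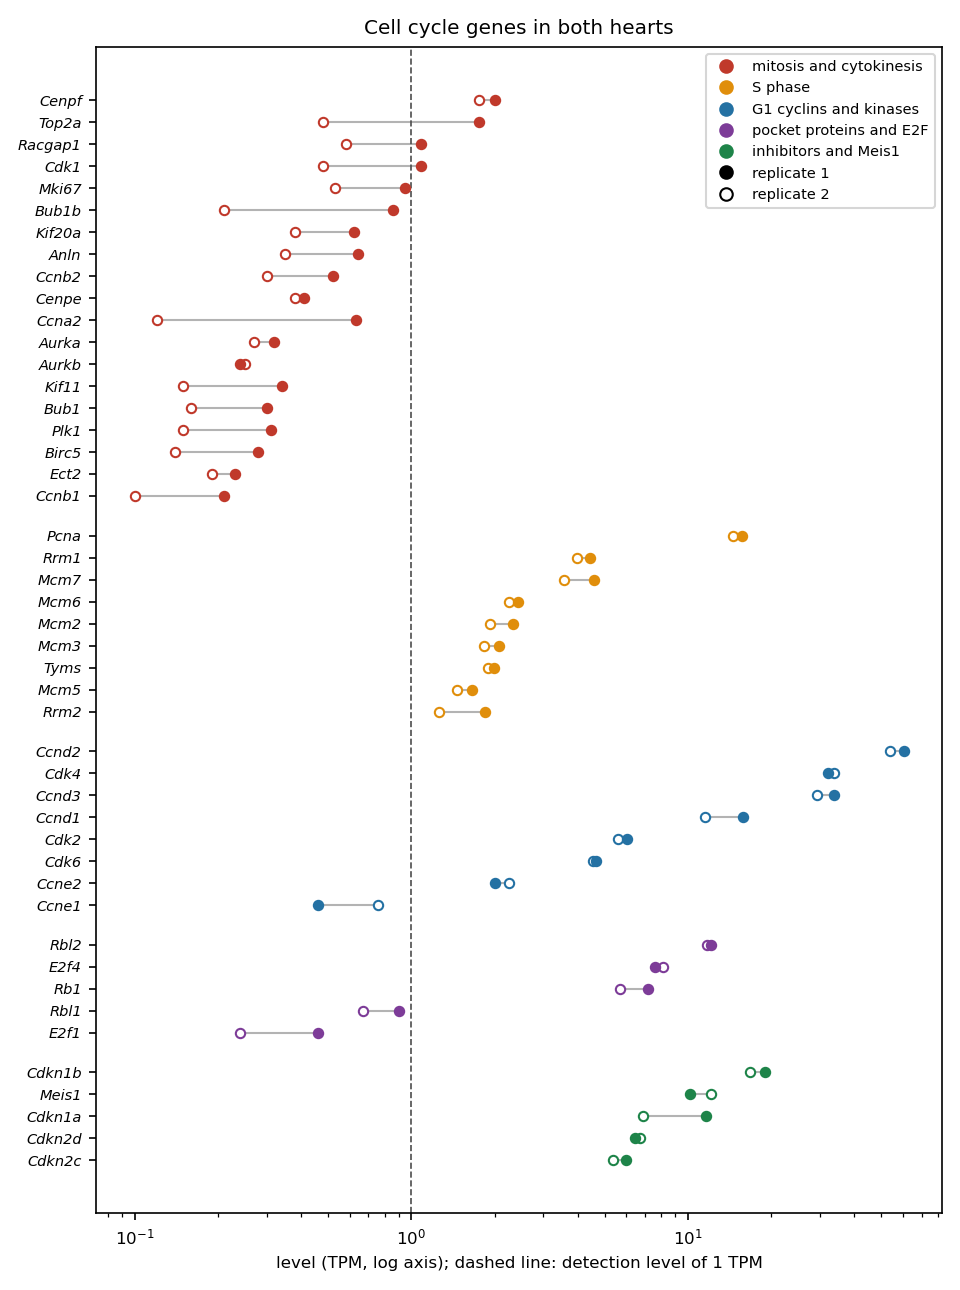
Level of each of the 46 members in TPM on a log axis, in replicate 1 (filled) and replicate 2 (open), grouped by role; the dashed line marks 1 TPM. All S phase genes lie right of the line in both libraries, 18 of 19 mitotic genes lie left of it in at least 1 library, and Ccnd2 is the highest member at 60.3 and 53.8 TPM.

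Among the mitotic genes, Cenpf, a large protein of the nuclear matrix and kinetochore, was the only one detected, with 2.00 TPM in replicate 1 and 1.76 TPM in replicate 2. Its counts ran the other way, 383 in replicate 1 and 476 in replicate 2, with an effective length of 5676 bases in replicate 1 and 7762 bases in replicate 2. The short transcript Cenpf-202, of 358 bases, took 43.5% of the gene's TPM in replicate 1 and 29.6% in replicate 2 on 7.6 and 4.71 counts. The longest, Cenpf-204, held 359 and 469 of the counts. In the read-based quantification, which assigned no reads to Cenpf-202, the gene had 1.13 TPM in replicate 1 and 1.45 TPM in replicate 2. The direction of the Cenpf difference in TPM therefore depended on the quantification, and both count tables placed it higher in replicate 2.

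Another 3 mitotic genes reached 1 TPM in replicate 1 alone. Top2a, the topoisomerase that untangles sister chromatids (chromosome 11, 98992943 to 99024189, minus strand, mm10), had 1.76 TPM in replicate 1 and 0.48 TPM in replicate 2, on 171 and 56 counts. Racgap1, a subunit of the centralspindlin complex of cytokinesis, had 1.08 TPM in replicate 1 and 0.58 TPM in replicate 2. Cdk1, the kinase that drives entry into mitosis, had 1.08 TPM in replicate 1 and 0.48 TPM in replicate 2. Coding transcripts alone gave 0.87 TPM for Top2a, 0.49 for Racgap1 and 1.08 for Cdk1 in replicate 1. Read-based gene TPM in that library was 1.70, 1.64 and 1.33. Mki67, which coats mitotic chromosomes and is the common marker of cycling cells, had 0.95 and 0.53 TPM on 320 and 136 counts. Its effective length was 9962 bases in replicate 1 and 7305 bases in replicate 2, so a count of that size stands for a low level per length.

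The remaining mitotic genes were measured on few reads. The mitotic cyclins Ccna2, Ccnb1 and Ccnb2 summed to 1.36 TPM in replicate 1 and 0.52 TPM in replicate 2. The kinases Aurka, Aurkb, Plk1 and Bub1 and the spindle checkpoint protein Bub1b ran from 0.24 to 0.86 TPM in replicate 1 and from 0.15 to 0.27 TPM in replicate 2. Motor and cytokinesis genes (Kif11, Kif20a, Cenpe, Anln, Ect2 and Birc5) ran from 0.23 to 0.64 TPM in replicate 1 and from 0.14 to 0.38 TPM in replicate 2. Birc5, survivin, was the least covered with 8 and 4 counts. In 6 mitotic genes, all at mean counts of 10 to under 100, where 15 mitotic genes lay, the TPM of a library was below the deposited credibility interval of that same value, against 12% of genes of that range and 5.71% of all tested genes. Racgap1 in replicate 1, at 1.08 TPM with an interval of 1.27 to 2.47, is an example.

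All 9 S phase genes were detected, and all had a higher TPM in replicate 1. That direction was not particular to them: 39 of the 46 members had a higher TPM in replicate 1. The median over protein-coding genes was also higher there, with 1.18 TPM in replicate 1 and 1.06 TPM in replicate 2. Read-based TPM of S phase genes was higher in replicate 1 in 8 of 9, and Mcm6 had 2.73 TPM in replicate 1 and 3.35 TPM in replicate 2. Pcna, the sliding clamp of the replicative polymerases, was far above the others with 15.7 TPM in replicate 1 and 14.6 TPM in replicate 2. It was 16.6 times Mki67 in replicate 1 and 27.6 times in replicate 2. Read-based Pcna was higher, at 27.1 and 22.4 TPM, of which the noncoding Pcna-203 held 47.7% and 33.7%, and was 26.5 and 24.4 times Mki67. A processed pseudogene, Pcna-ps2, was listed with 2.47 and 1.79 TPM, and reads of near-identical copies can be split between such entries. The 5 subunits of the MCM helicase that were members (Mcm2, Mcm3, Mcm5, Mcm6 and Mcm7) summed to 13.1 TPM in replicate 1 and 11.04 TPM in replicate 2, led by Mcm7 at 4.59 and 3.57 TPM. Ribonucleotide reductase was uneven: the large subunit Rrm1 had 4.43 TPM in replicate 1 and 3.96 TPM in replicate 2, and the cell-cycle-regulated small subunit Rrm2 had 1.84 and 1.26 TPM. Tyms, thymidylate synthase, had 1.99 TPM in replicate 1 and 1.89 TPM in replicate 2.

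D-type cyclins dominated the cyclins among the members. Ccng1 and Ccni, which were not members, lay above Ccnd2 and are given further below. Ccnd2 (chromosome 6, 127125162 to 127152193, minus strand, mm10) was the highest member with 60.3 TPM in replicate 1 and 53.8 TPM in replicate 2, above 95.7% and 95.5% of protein-coding genes. Ccnd3 had 33.8 and 29.4 TPM, and Ccnd1 15.9 and 11.5 TPM. The order Ccnd2, Ccnd3, Ccnd1 held in both libraries with no overlap between them. Summed, the 3 D-type cyclins reached 109.95 TPM in replicate 1 and 94.6 TPM in replicate 2, which was 44.5 and 31.4 times the E-type cyclins and 80.8 and 182 times the A- and B-type cyclins. The E-type cyclins, which act at the G1 to S transition, were low: Ccne2 had 2.01 TPM in replicate 1 and 2.25 TPM in replicate 2, and Ccne1 0.46 and 0.76 TPM.

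The kinases partnered by these cyclins were also unequal. Cdk4 had 32.0 TPM in replicate 1 and 33.7 TPM in replicate 2, within the range of Ccnd3, from which it did not differ beyond the spread between libraries. Cdk6, the other partner of D-type cyclins, had 4.66 and 4.54 TPM, so Cdk4 was 6.87 times Cdk6 in replicate 1 and 7.43 times in replicate 2. The gap was smaller in coding transcripts alone, with 11.2 and 12.1 TPM for Cdk4 and 4.63 and 4.52 TPM for Cdk6. Counts, which are not scaled by length, were 732 and 775 for Cdk4 and 1085 and 971 for Cdk6. Cdk2, the partner of E- and A-type cyclins, had 6.03 and 5.61 TPM. Of the G1 and inhibitor genes, 3 did not reach 1 TPM in either library: Ccne1, the pocket protein gene Rbl1 and the activator E2f1.

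Of the pocket proteins, Rbl2 (p130), the form that predominates in resting cells, was highest with 12.1 TPM in replicate 1 and 11.7 TPM in replicate 2. Rb1, the retinoblastoma protein, had 7.20 and 5.69 TPM. Rbl1 (p107), itself made by cycling cells, had 0.90 and 0.67 TPM, and Rbl2 was 13.4 and 17.5 times as high. The E2F pair was as far apart: E2f4, the factor found in repressor complexes, had 7.61 TPM in replicate 1 and 8.12 TPM in replicate 2. E2f1, an activator of S phase genes, had 0.46 and 0.24 TPM on 41 and 22 counts, so E2f4 was 16.5 times E2f1 in replicate 1 and 33.8 times in replicate 2.

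All 4 inhibitors and Meis1 were detected. Cdkn1b (p27), a CIP/KIP inhibitor of cyclin-bound kinases, was highest with 19.0 TPM in replicate 1 and 16.8 TPM in replicate 2. Its relative Cdkn1a (p21), a target of p53, had 11.6 TPM in replicate 1 and 6.89 TPM in replicate 2, the widest gap of the group. The INK4 inhibitors of Cdk4 and Cdk6 lay close together: Cdkn2d (p19) had 6.46 and 6.71 TPM, and Cdkn2c (p18) 5.98 and 5.35 TPM. Meis1, a homeodomain factor known in the mouse heart as a regulator of cardiomyocyte cell cycle arrest, had 10.2 TPM in replicate 1 and 12.1 TPM in replicate 2. Cdkn1a and Cdkn1b together summed to 30.6 and 23.7 TPM, against 12.4 and 12.1 TPM for Cdkn2c and Cdkn2d. Cdkn1c (p57), the third CIP/KIP inhibitor and no member, had 16.99 TPM in replicate 1 and 11.9 TPM in replicate 2.

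Among the role groups the hearts differed most in the mitotic genes. Counts were scaled with TMM, a normalisation that assumes most genes do not differ, and the ratio is replicate 1 over replicate 2, given for genes with a mean count of 10 or more. Replicate 1 was higher in 15 of 18 tested mitotic genes and replicate 2 in 3, with a median log2 ratio of 0.85. With read-based counts the sign changed for Aurka (0.29 to -0.14), Aurkb (-0.23 to 0.22) and Ect2 (-0.04 to 0.20), and the median was 0.74. Over all 15839 tested genes replicate 1 was higher in 48.3%, with a median of -0.01. The lower range of counts favoured replicate 1 slightly: 56.4% of genes with a mean count of 10 to under 100 were higher there, with a median of 0.08. S phase genes were higher in replicate 1 in 9 of 9, but by little, with a median of 0.04 and a maximum of 0.39; Pcna, at 0.00, was at -0.05 with read-based counts. The medians were 0.09 for G1 cyclins and kinases, 0.07 for pocket proteins and E2F factors, and 0.01 for inhibitors with Meis1.

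Of the mitotic genes 6 were past 2-fold in replicate 1, against 1.95% of all tested genes; 0 members were past 2-fold in replicate 2, against 1.25%. The 6 were Ccna2, Top2a, Ccnb1, Cdk1, Mki67 and Kif11. In the range of 10 to under 100 counts they were 4 of 15 mitotic genes, against 6.13% of genes of that range, and from 100 counts on 2 of 3, against 0.24%; in replicate 2 those shares of all genes were 4.06% and 0.0979%. Ccna2, the cyclin of S phase and early mitosis, had 0.63 TPM in replicate 1 and 0.12 TPM in replicate 2, on 51 and 10 counts, a ratio of 4.94 (95% exact interval 2.48 to 10.9, counting error only). Top2a was 2.96 times as high (2.18 to 4.08) and Mki67 2.28 times (1.86 to 2.81). The intervals of all 3 lay above 1, and that of Ccna2 was the widest of them, as its counts were the lowest.

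Cdk1, on 42 counts in replicate 1 and 15 in replicate 2, had a ratio of 2.71 (1.47 to 5.27). Kif11, the motor that separates the spindle poles, had 54 and 24 counts and a ratio of 2.18 (1.32 to 3.69). Ccnb1, the main partner of Cdk1, had 16.8 and 5.64 counts and a ratio of 2.89, whose interval of 1.03 to 8.50 barely cleared 1. In all, the counting interval lay above 1 in 10 of the 18 tested mitotic genes, held 1 in 7 and lay below 1 in 1, Cenpf, with a ratio of 0.780 (0.680 to 0.894). Over all tested genes it lay above 1 in 14.5% and below 1 in 15.3%. At mean counts of 10 to under 100 it lay above 1 in 8 of 15 mitotic genes, against 9.37% of genes of that range, and below 1 in 5.98% of them. In S phase genes it held 1 in 9 of 9. Counting intervals do not hold the variation between animals, which 2 libraries of a group cannot give for a single gene.

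**Figure D3:**
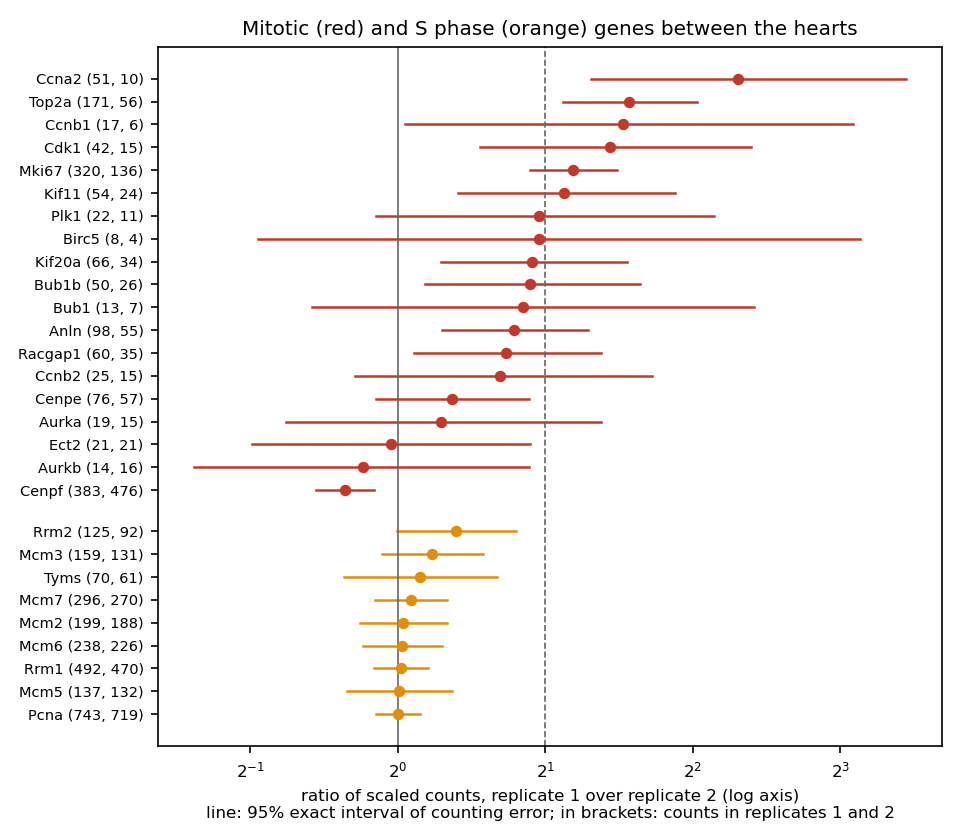
Ratio of scaled counts, replicate 1 over replicate 2, for mitotic (red) and S phase (orange) genes, with 95% exact counting intervals on a log axis and the counts of replicates 1 and 2 in brackets. Mitotic genes spread up to 4.94 for Ccna2 with wide intervals, Cenpf lies at 0.780, and all S phase intervals hold 1.

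Summed over the 19 mitotic genes, counts were 1510 in replicate 1 and 1019 in replicate 2, a ratio of 1.44 (1.33 to 1.56). Cenpf held 25.4% of these counts in replicate 1 and 46.7% in replicate 2. Without it, a sum formed after its direction was seen, the other 18 genes had 1127 and 543 counts and a ratio of 2.01 (1.81 to 2.23). The sum therefore depended on 1 long and comparatively abundant gene that differed in the other direction. Summed S phase counts were 2458 in replicate 1 and 2289 in replicate 2, a ratio of 1.04 (0.982 to 1.10).

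Outside mitosis no member was past 2-fold, and the differences ran both ways. The counting interval lay above 1 in 3 G1 cyclins and kinases, 1 of the pocket proteins and E2F factors, and 2 of the inhibitors with Meis1. It lay below 1 in 1 gene of each of the last 2 groups. Cdkn1a, on 675 counts in replicate 1 and 434 in replicate 2, had a ratio of 1.51 (1.33 to 1.70). E2f1 had a ratio of 1.81 (1.05 to 3.18) on its few reads. Meis1 was lower in replicate 1, on 845 and 1023 counts, with a ratio of 0.801 (0.730 to 0.877), and so was E2f4 at 0.855 (0.754 to 0.969). Ccnd1 had a ratio of 1.17 (1.09 to 1.25), Ccnd3 1.12 (1.05 to 1.2), Cdkn1b 1.09 (1.01 to 1.16) and Ccnd2 1.04 (1.01 to 1.08). Deposited credibility intervals of TPM were apart with replicate 1 higher in 6 of 45 tested members, against 9.8% of tested genes. These were Top2a, Ccna2, Kif11, Ccnd1, Cdkn1a and Cdkn1b. With replicate 2 higher they were apart in 1 of 45, Meis1, against 1.68%. Both counts were close to the shares of all tested genes.

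**Figure D4:**
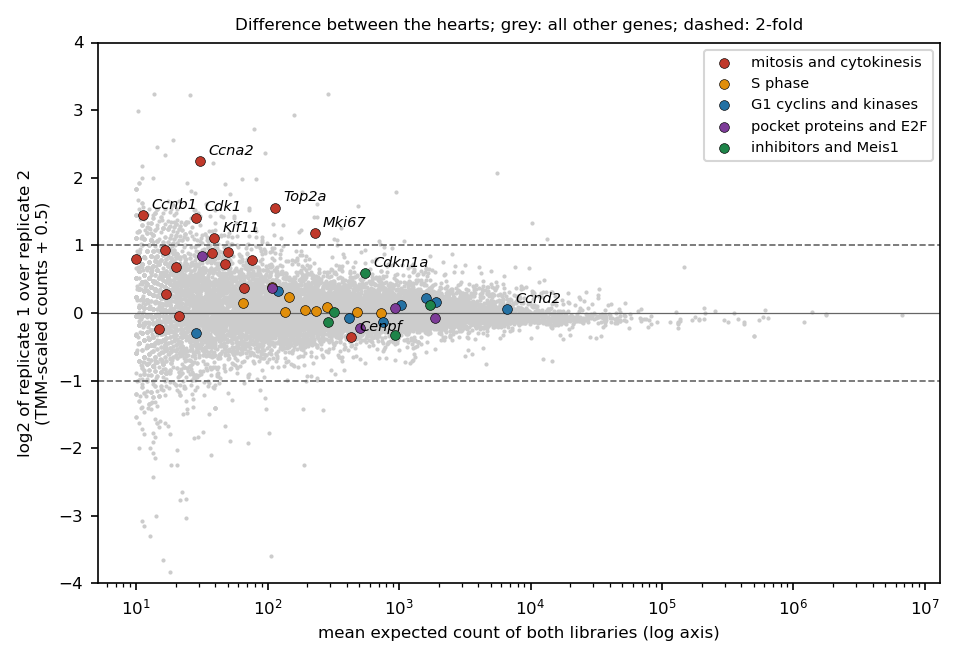
Log2 ratio of replicate 1 over replicate 2 (TMM-scaled counts plus 0.5) against the mean count on a log axis; members are coloured by role, all other tested genes are grey, and dashed lines mark 2-fold. Mitotic genes reach 2.25 (Ccna2) at low counts, most G1 genes lie near 0 at high counts, and 57 genes fall outside the plotted range.

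Other values moved with the mitotic genes between the libraries. Of all genes with a mean count of 100 or more, 45% were higher in replicate 1. The glucocorticoid and stress list, with Pdk4 and Mt1 highest, was higher in replicate 1 in 12 of 12 genes. Its log2 ratios ran from 0.00 to 2.07 (Zbtb16), with a median of 1.15. It summed to 619 TPM in replicate 1 and 304 TPM in replicate 2. Macrophage markers were higher there in 9 of 10, with a median of 0.32 and sums of 140 and 106 TPM. Fibroblast markers were higher in 9 of 10 (median 0.20, sums of 974 and 807 TPM) and endothelial markers in 9 of 10 (median 0.16, sums of 766 and 601 TPM). Smooth muscle and pericyte markers were higher in 6 of 8 (median 0.28, sums of 350 and 270 TPM). Cardiomyocyte markers were lower in replicate 1 in 9 of 10, with a median of -0.13. TPM sums are not scaled with TMM. Summed scaled counts had ratios of 1.26 for macrophage, 1.16 for fibroblast, 1.14 for endothelial and 1.17 for smooth muscle and pericyte markers. The ratio was 2.09 for the glucocorticoid and stress list and 0.949 for cardiomyocyte markers. The part of these lists in the difference of mitotic genes was not tested.

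Lymphoid lists were near 0. T and B cell markers were detected in 0 of 10, were lower in replicate 1 in 6 of 6 tested genes, and summed to 2.21 TPM in replicate 1 and 2.99 TPM in replicate 2. Thymus markers were detected in 1 of 8, were listed at 0 TPM in both libraries in 4 of 8 (Rag1, Rag2, Ptcra and Foxn1), and summed to 1.11 and 1.84 TPM. Erythroid markers, present in any organ that holds blood, were higher in replicate 1 in 5 of 7 and had a median log2 ratio of 0.07 with sums of 11302 TPM in replicate 1 and 10824 TPM in replicate 2.

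In a list of 34 further genes of the spindle, kinetochore and chromosome condensation, 8 were detected, and replicate 1 was higher in 23 of 29 tested genes, with a median log2 ratio of 0.73. Past 2-fold in replicate 1 were 12 of them, and 0 in replicate 2. They were Prc1, Tpx2, Ndc80, Nuf2, Spc25, Cdca8, Ckap2, Kif4, Nek2, Ncapg, Hmmr and Kif18b, all at mean counts of 10 to under 100, where 12 of the 23 tested genes of the list stood past 2-fold, against 6.13% of all genes in that range for replicate 1 and 4.06% for replicate 2. Prc1, which bundles microtubules of the central spindle, had 58 and 22 counts, and Tpx2, an activator of Aurka, 72 and 34. The highest genes of the list, Pttg1 (securin, 28.1 and 33.0 TPM) and Cenpa (the centromeric histone, 16.5 and 22.3 TPM), were lower in replicate 1. With them the counts of the list summed to 4036 in replicate 1 and 3814 in replicate 2, a ratio of 1.03 (0.981 to 1.07).

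Among regulators of these genes, Foxm1, the factor that activates late cell cycle genes, was past 2-fold in replicate 1 with 64.9 counts there and 23 in replicate 2. Of 15 tested genes of the E2F, MuvB and MYB list no other was. Over all tested genes the share was 1.95%, and it was 6.13% at mean counts of 10 to under 100, where Foxm1 lay. The median log2 ratio of the list was 0.05. That list was led by Tfdp2, a partner of E2F factors, with 38.1 and 29.0 TPM, and by Rbbp4, a MuvB subunit and histone chaperone, with 32.3 and 33.7 TPM. In 34 tested further DNA replication genes the median was -0.03, with Uhrf1 (158 and 61 counts) and Cdc7 (20 and 9 counts) past 2-fold in replicate 1. Cdc7 lay in the same lower range of counts as Foxm1. Uhrf1 lay at 100 or more, where 0.24% of all genes were past 2-fold in replicate 1. Uhrf1 maintains DNA methylation at replication, and Cdc7 is the kinase that fires origins. Gmnn and Orc4 led that list by level, with 14.9 and 15.7 TPM for Gmnn, the inhibitor of origin licensing, and 14.1 and 13.8 TPM for Orc4, a subunit of the origin recognition complex.

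Most genes of the other lists were detected, and few differed. Further cyclins, kinases and phosphatases had 17 of 23 detected, a median log2 ratio of 0.06 and 0 genes past 2-fold; Ccng1, a p53 target, was highest with 172 TPM in replicate 1 and 168 TPM in replicate 2, followed by Ccni with 68.5 and 67.6 TPM. Further inhibitors had 10 of 15 detected and a median of 0.04, led by the antiproliferative genes Tob2 (36.7 and 30.3 TPM) and Tob1 (23.3 and 19.97 TPM); Chek1, the checkpoint kinase, was past 2-fold in replicate 1 on 16 and 4 counts. The anaphase-promoting complex had 15 of 16 detected, led by its subunits Anapc13 (119 and 124 TPM) and Anapc5 (62.1 and 62.6 TPM), with a median of -0.04. Fbxo5, an inhibitor of that complex, was past 2-fold in replicate 2, on 13 counts in replicate 1 and 36 in replicate 2. Chek1 was 1 of 13 tested genes of its list and Fbxo5 1 of 16. Both lay at mean counts of 10 to under 100, where 6.13% of all genes were past 2-fold in replicate 1 and 4.06% in replicate 2. Over all tested genes the shares were 1.95% and 1.25%.

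The transcripts behind the gene values bear on what the levels mean. Of 45 members with more than 1 annotated transcript, 37 had the same leading transcript in both libraries, 35 did so in the read-based quantification, and 26 had the same one in both libraries and both quantifications. Coding transcripts held a median of 93.8% of a member's TPM in replicate 1 and 97.4% in replicate 2. In 4 members they held less than 50% in both libraries. For Cdk4 it was 35.0% and 36.0%, and its leading transcript was Cdk4-209, a retained-intron transcript of 468 bases with 38.4% and 41.2% of the gene. Coding Cdk4 transcripts alone gave 11.2 TPM in replicate 1 and 12.1 TPM in replicate 2, below Ccnd3 at 32.6 and 28.3 coding TPM.

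Tyms had 25.5% and 31.7% in coding transcripts, with Tyms-205, a nonsense-mediated decay transcript, leading at 45.6% and 44.1%. The read-based table was led by coding Tyms transcripts in both libraries. Meis1 had 36.2% in replicate 1 and 38.5% in replicate 2, led by the processed transcript Meis1-203, and by coding Meis1-201 in the read-based table. Bub1 had 26.7% and 20%, on 13 and 7 counts. Ccnd2 was led by the full-length coding Ccnd2-201 with 50.2% and 50.8%, while the short Ccnd2-206 (627 bases, coding) and Ccnd2-207 (415 bases, not coding) held most of the rest on far fewer counts, 295 and 297 for Ccnd2-206 against 6370 and 5937 for Ccnd2-201. Cdkn1a was assigned to Cdkn1a-201 in the alignment-based tables (90.5% and 98.8%) and to Cdkn1a-205 in the read-based tables (91.9% and 94.8%), both coding.

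**Figure D5:**
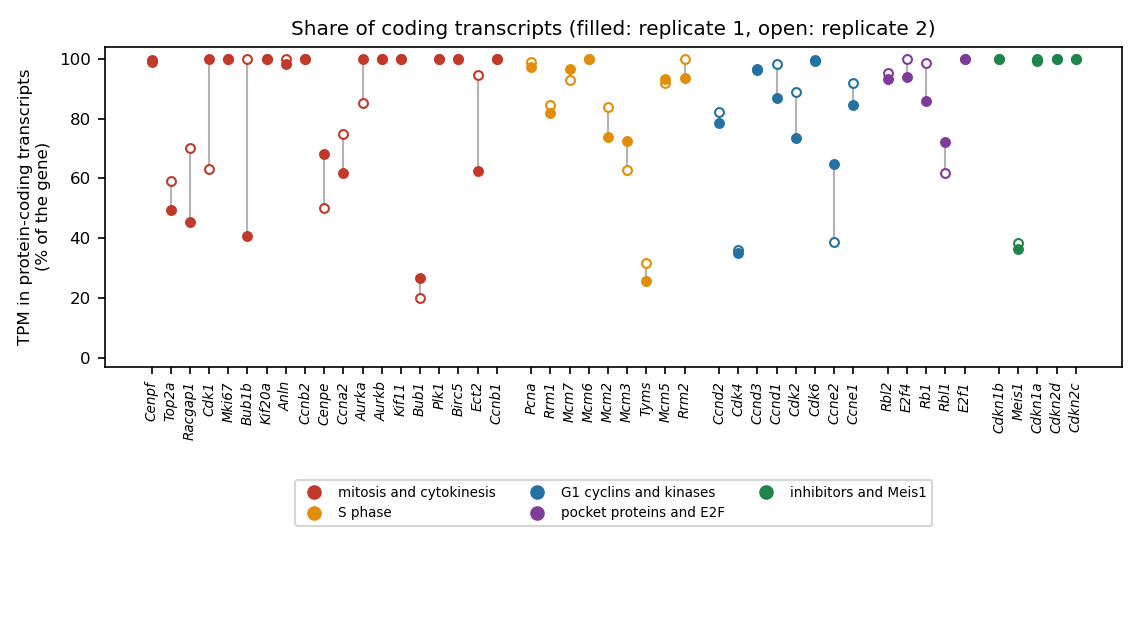
Percentage of each member's TPM that lies in protein-coding transcripts, in replicate 1 (filled) and replicate 2 (open), coloured by role. Most members lie near 100%, Cdk4, Tyms, Meis1 and Bub1 lie under 50% in both libraries, and Bub1b, Ccne2 and Ect2 are among those with wide gaps between the libraries.

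Isoform mix also separated TPM from counts between the libraries. Bub1b had 0.86 TPM in replicate 1 and 0.21 TPM in replicate 2, further apart than its 50 and 26 counts (ratio 1.86, 1.14 to 3.12), as its effective length was 1719 bases in replicate 1 and 3569 bases in replicate 2. Aurkb had near-equal values, 0.24 and 0.25 TPM, but was assigned wholly to Aurkb-202 in replicate 1 and wholly to Aurkb-201 in replicate 2, on 14 and 16 counts. Exons of 16 members shared bases with another annotated gene, 15 of them with a gene on the opposite strand. The largest shares were 29.3% of the exon bases of Kif20a with Cdc23, 23.4% of Ccnd1 with LTO1 and 19.7% of Cdk4 with Tspan31. The libraries were labelled as stranded, but the strand setting of the counting is not given in the sources used here, so reads of such pairs may not be told apart.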

How the data were processed

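Total RNA of 2 heart libraries was sequenced by the authors; per the deposited listings reads were assigned on mm10 with GENCODE M21. The aligner and counter are not given in the sources used. The authors deposited unnormalized expected counts per gene and transcript from alignments, and estimated counts per transcript from reads. They also deposited TPM, for which spike-ins entered the total. Score columns hold deposited credibility bounds of TPM, at a level not stated there. A percent column deposited with the transcript tables states how much of its gene a transcript makes up.

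The members, lists and promoter motifs were chosen with earlier results of these data known. Named are all 46 members and their leading transcripts, and of each further list the 2 genes highest in mean TPM and those past 2-fold; marker lists stand only beside results, and Alb, Cdkn1c and single transcripts were named after their values were seen. There were 7 pathway lists with 148 symbols and 10 marker lists with 96 symbols, 1 of them not found. The result of 1 pathway list is not reported here. ERCC, tRNA and phiX entries were left out of gene totals.

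Ratios use counts scaled with TMM (edgeR 4.0.16, R 4.3.3); past 2-fold is judged on scaled counts at a mean count of 10 or more, and log2 ratios use a pseudocount of 0.5. Intervals are exact Clopper-Pearson intervals at 95% on rounded counts; they cover counting error only, and no test between conditions was possible. The ratio step was tested on simulated counts that held counting error only, so that test does not cover variation between animals. Alternatives were read-based values, posterior mean TPM, TPM over protein-coding nuclear genes, size factors of DESeq2 1.42.0, total counts, ERCC totals, other thresholds and pseudocounts, each library left out, and, added after seeing the data, coding transcripts only. Promoter windows came from RefSeq on GRCm38.p6, the assembly of mm10. Python 3.11.15, numpy 2.4.6, pandas 2.3.3, scipy 1.17.1 and matplotlib 3.10.9 did the rest.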

Additional observations from a re-analysis of the deposited data

How the results depend on the processing

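Mitotic genes were the lowest role group under all 7 settings of level. With posterior mean TPM the medians were 0.665 TPM for mitotic and 2.65 TPM for S phase genes. Over protein-coding nuclear genes only they were 1.01 for mitotic genes, 5.47 for S phase genes, 25.0 for G1 cyclins and kinases, 16.5 for pocket proteins and E2F factors and 21.8 for inhibitors with Meis1, as the total is smaller. Read-based TPM gave 2.73 for S phase genes, 7.70 for pocket proteins and E2F factors and 10.9 for inhibitors with Meis1. Coding transcripts alone, chosen after seeing the data, gave 1.67 for S phase genes and 8.04 for G1 cyclins and kinases. Leaving out a library moved the medians between 0.27 and 0.52 (mitotic), 1.93 and 2.34 (S phase), 8.56 and 10.9 (G1), 5.69 and 7.20 (pocket proteins and E2F factors), and 6.89 and 10.2 (inhibitors with Meis1), and detected members between 25 and 28.

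At a mean count of 50 or more, 2 members were past 2-fold, Mki67 and Top2a, as fewer genes were tested. ERCC totals, which moved the log2 ratios of all genes by 0.11, put 9 past 2-fold, the same 6 with Bub1b, Kif20a and Plk1. Read-based counts put 6 there, 5 of them shared, with Plk1 in place of Ccnb1; there the median log2 ratio of inhibitors with Meis1 was -0.01. Of the levels of single members, 29 of 46 moved by more than the SD between libraries in read-based TPM; of 45 log2 ratios, 5 moved beyond their counting error with ERCC totals and 0 with read-based counts, DESeq2 size factors or total counts. Depth limits the mitotic genes most: 15 of 18 rest on mean counts under 100. No paired analysis was possible because both libraries belong to 1 group.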
